A study of Mus musculus with 6 samples.

Results

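Ifit1, Ifit2, Ifit3, Rtp4, Isg15, Irf7, Oasl2, Usp18 and Ifi44 are genes that type I interferon switches on, and they were followed here in infarcted mouse hearts. They were chosen by name, with earlier results of these data known. Each was looked up by gene symbol among the features of a Clariom S mouse array. Of the 9 genes, 8 had a feature, 1 feature each, among 22206 array features. Ifi44 had none in the annotation used and was not analysed here. The related gene Ifi44l was not put in its place.

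RNA of 6 whole hearts was measured, 1 array for each male mouse, in 3 groups of 2 that the series design calls independent biological replicates. The 12W-TTg mice were of genotype Tcf21iCre/Tomato/MGTH2A, and their hearts were taken 3 months after infarction. The 12W-Ctrl mice were Tcf21iCre/Tomato, also at 3 months, and the 8W-Ctrl mice were Tcf21iCre/Tomato at 2 months. All 6 mice carried the Cre and the Tomato reporter and had their left coronary artery tied at 8 weeks of age. No uninfarcted heart was analysed here, so levels before infarction are not known from these data. Cre follows Tcf21, a gene of cardiac fibroblasts, and MGTH2A carries Mef2c, Gata4, Tbx5 and Hand2, transcription factors of the developing heart. Mice with an ejection fraction over 45% at day 2 had been removed. The labels used here do not say how or when the Cre was induced. The study asks what this reprogramming of fibroblasts does to the chronically infarcted heart.

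Type I interferons bind the receptor pair Ifnar1 and Ifnar2, and the kinases Jak1 and Tyk2 then activate signal transducers such as Stat2. A complex that holds Stat2 and Irf9 binds the interferon-stimulated response element (ISRE) in the promoters of antiviral genes. After infarction, nucleic acids released by dying cells are known to switch this program on in cardiac macrophages of mice. The promoters of Ifit1, Ifit3 and Isg15 are shown because they carry the element. They are the RefSeq windows (build GRCm38.p6) of 300 bases, 250 before to 50 after the annotated start, written 5′ to 3′ on the strand of the gene. The capitals mark the core of the ISRE, GAAA then any 2 bases then GAAA, searched on both strands.
Ifit1 (chr19:34640639-34640938, plus strand): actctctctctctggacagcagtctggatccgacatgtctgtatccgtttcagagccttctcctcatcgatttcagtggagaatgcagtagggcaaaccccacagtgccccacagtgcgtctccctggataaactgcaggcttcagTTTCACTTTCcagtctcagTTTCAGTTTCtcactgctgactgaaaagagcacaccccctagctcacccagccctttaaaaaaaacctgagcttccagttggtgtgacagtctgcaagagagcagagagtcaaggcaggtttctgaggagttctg
Ifit3 (chr19:34583279-34583578, plus strand): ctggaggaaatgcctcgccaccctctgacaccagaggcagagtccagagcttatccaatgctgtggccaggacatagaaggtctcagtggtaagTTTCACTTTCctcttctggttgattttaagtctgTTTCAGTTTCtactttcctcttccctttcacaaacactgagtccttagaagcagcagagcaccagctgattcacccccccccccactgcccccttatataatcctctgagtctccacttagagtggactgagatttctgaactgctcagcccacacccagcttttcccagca
Isg15 (chr4:156200769-156201068, minus strand): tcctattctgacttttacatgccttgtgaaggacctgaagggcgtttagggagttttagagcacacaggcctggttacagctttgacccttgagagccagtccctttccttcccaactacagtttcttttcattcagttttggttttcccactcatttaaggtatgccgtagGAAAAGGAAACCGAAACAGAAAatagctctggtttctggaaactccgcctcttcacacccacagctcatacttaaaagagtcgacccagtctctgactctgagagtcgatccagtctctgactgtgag

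Ifit1 and Ifit3 each had 2 matches on the opposite strand, beginning 104 and 85 bases before the Ifit1 start and 156 and 122 bases before the Ifit3 start. Isg15 had 3 matches on its own strand, 78, 72 and 66 bases before its start, which overlap each other. Windows were at hand for 6 of the 8 measured genes. The core stood in those of 3 genes, which were 3 of 7 windows (42.9%), and in 3.44% of all 32851 windows of the same length. No match was present in the windows of Ifit2, Irf7 and Oasl2, which says only that these letters were not there. The GAS core TTCNNNGAA, an element of the response to interferon gamma, was in 1 of the 7 windows (14.3%) and in 8.3% of all windows. The match was in 1 of the 2 windows of Ifit2.

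**Figure D1:**
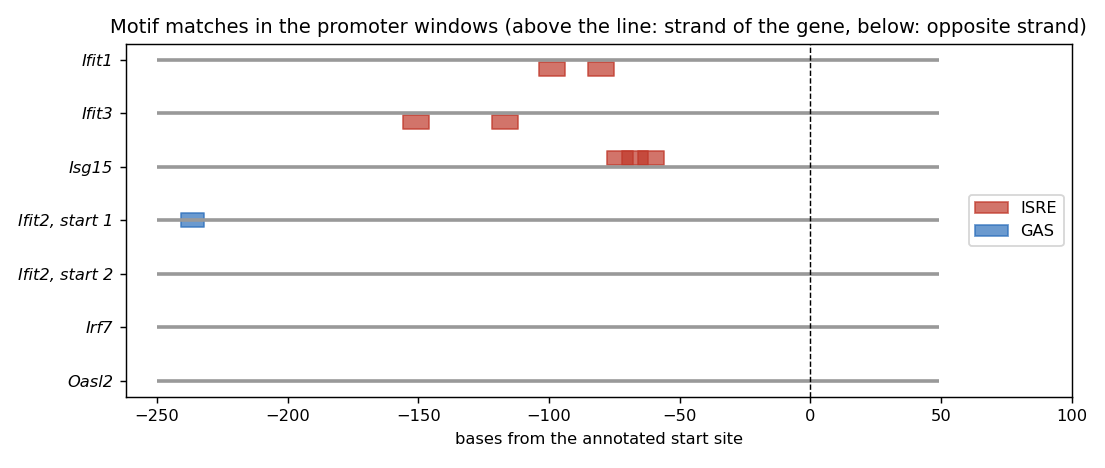
Motif matches in the promoter windows of Ifit1, Ifit3, Isg15, Ifit2 (2 annotated starts), Irf7 and Oasl2. The horizontal axis gives bases from the annotated start, grey lines are the windows, red bars are ISRE core matches and the blue bar is a GAS match, whose letters read the same on both strands. The ISRE matches of Ifit1, Ifit3 and Isg15 lie between 156 and 57 bases before the start.

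The arrays were alike in their overall signal. The median over all features ran from 4.91 to 5 on the log2 scale, and replicates correlated across features at 0.989 in 12W-TTg, 0.986 in 12W-Ctrl and 0.984 in 8W-Ctrl. Cardiomyocyte markers identified the tissue, with list means of 18.87 to 19.24 close to the top of the scale at 19.93. The transgene factor Tbx5 read 10.72 and 9.31 in 12W-TTg hearts, against 6.42 and 7.47 in 12W-Ctrl and 7.79 and 7.98 in 8W-Ctrl hearts. Mef2c and Hand2 were also above both control groups in both 12W-TTg hearts, while Gata4, at 14.05 and 13.43 in 12W-TTg, overlapped 12W-Ctrl at 13.22 and 13.75. Whether these features read the transgene was not tested. All 8 interferon-stimulated genes had their highest value on 8W-Ctrl replicate 1, as did 19.1% of all features. The macrophage, class II and immediate early gene lists had their highest means on 12W-Ctrl replicate 1. The medians of the 8 genes are given with and without these arrays. Medians of gene lists are so given for some lists and comparisons only, and others may also rest on single arrays. Precision is limited throughout by having 2 arrays in a group.

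In 12W-TTg hearts the mean of all 8 genes was lower than in 12W-Ctrl hearts at the same time, by 0.19 to 1.21 on the log2 scale. The median difference was −0.66, against 0.01 over all features, of which 48.3% had a lower mean. No gene passed limma's test at an adjusted p under 0.05, where the smallest adjusted p was 0.661, and 0.0045% of all features passed (1 of 22206). At an unadjusted p under 0.05 Ifit2 and Rtp4 were lower, 2 of 8 genes against 4.11% of features (7.47% in either direction). Ifit2 also met a 2-fold difference, and 2% of features were lower by both criteria. The values of 5 of the 8 genes, Ifit1, Ifit2, Rtp4, Isg15 and Irf7, lay below those of 12W-Ctrl without overlap, against 19.3% of features. For a single gene, the smallest two-sided p of an exact permutation test with these group sizes is 0.333. The median was −0.36 without 12W-Ctrl replicate 1 and −1.05 without 12W-Ctrl replicate 2, and 7 and 8 of the genes had a lower mean.

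**Figure D2:**
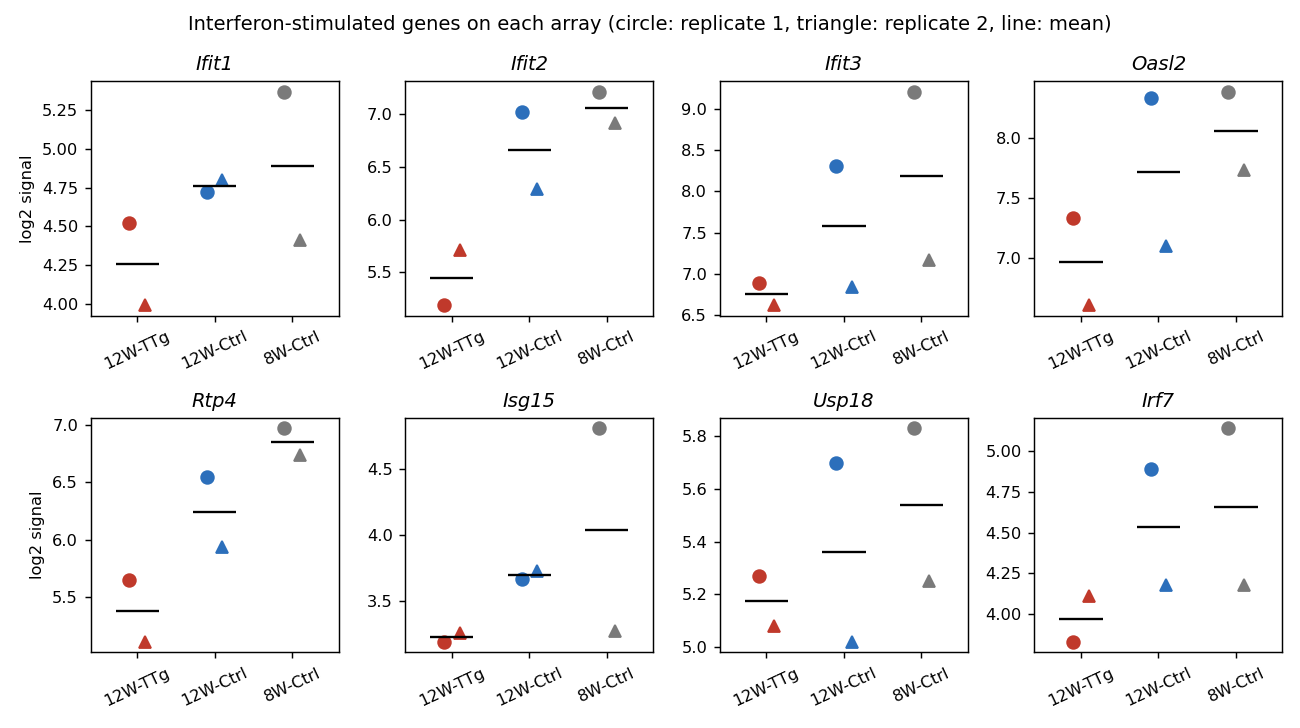
Log2 signal of each of the 8 genes on each array, with circles for replicate 1, triangles for replicate 2 and a line at the group mean. Groups run 12W-TTg, 12W-Ctrl and 8W-Ctrl from left to right, and each panel has its own vertical range. The grey circle of 8W-Ctrl replicate 1 is the highest point in all 8 panels.

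The Ifit genes encode proteins that bind foreign RNA and hold back its translation. Between 12W-TTg and 12W-Ctrl hearts, Ifit2 had the largest difference of the 8. It read 5.19 and 5.71 in 12W-TTg hearts, 7.02 and 6.29 in 12W-Ctrl hearts and 7.21 and 6.91 in 8W-Ctrl hearts (log2 signal, replicates 1 and 2). Both 12W-TTg values lay below all 4 control values, whereas the 2 control groups overlapped each other. The difference between 12W-TTg and 12W-Ctrl was −1.21 ± 0.33 (SE, n = 2 each), a 2.31-fold lower signal with a 95% interval of −1.99 to −0.42. The unadjusted p was 0.00804 and limma's adjusted p 0.661, and 1.72% of features had a difference as low. Over the arrays left out in turn it ran from −1.57 to −0.84.

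Ifit1 read 4.52 and 3.99 in 12W-TTg hearts, 4.72 and 4.80 in 12W-Ctrl hearts and 5.37 and 4.41 in 8W-Ctrl hearts. The 12W-TTg values were below those of 12W-Ctrl (−0.51 ± 0.36, n = 2 each) but overlapped 8W-Ctrl, whose lower heart was under the higher 12W-TTg heart. Ifit3, whose human counterpart binds and stabilises IFIT1, read 6.89 and 6.62 in 12W-TTg, 8.31 and 6.84 in 12W-Ctrl and 9.21 and 7.17 in 8W-Ctrl hearts. Its control replicates stood 1.47 apart at 3 months and 2.04 apart at 2 months, against 0.27 in 12W-TTg. With an SE of 0.70, its difference of −0.82 from 12W-Ctrl was within the spread between hearts. It was −0.09 without 12W-Ctrl replicate 1 and −1.56 without 12W-Ctrl replicate 2.

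Ifit2, Ifit3, Ifit1bl1, Ifit3b, Ifit1bl2 and Ifit1 lie together on chromosome 19 of the RefSeq annotation, and their neighbours were chosen for description after their values had been seen. Ifit3b, a close copy of Ifit3, read 6.83 and 6.32 in 12W-TTg, 7.97 and 6.85 in 12W-Ctrl and 9.32 and 7.08 in 8W-Ctrl hearts, nearly the values of Ifit3. Whether the 2 features separate the transcripts of these copies was not tested. Ifit1bl1 had a difference of 0.13 ± 0.36 and Ifit1bl2 one of 0.73 ± 0.29 between 12W-TTg and 12W-Ctrl (n = 2 each). Ifit1bl2 was at 4.34 and 4.90 in 12W-TTg against 3.90 and 3.89 in 12W-Ctrl and 3.76 and 4.24 in 8W-Ctrl hearts (limma, adjusted p = 0.661).

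Oasl2 belongs to the oligoadenylate synthetase family of viral RNA sensors. It read 7.33 and 6.61 in 12W-TTg hearts, 8.33 and 7.10 in 12W-Ctrl hearts and 8.38 and 7.73 in 8W-Ctrl hearts. The 12W-TTg values overlapped those of 12W-Ctrl but lay below those of 8W-Ctrl. Its difference from 12W-Ctrl was −0.75 ± 0.47 and reached only −0.13 without 12W-Ctrl replicate 1, against −1.36 without replicate 2.

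Rtp4 encodes a receptor transporter protein that interferon induces. It read 5.65 and 5.11 in 12W-TTg hearts, 6.55 and 5.94 in 12W-Ctrl hearts and 6.97 and 6.74 in 8W-Ctrl hearts. The 3 groups did not overlap, and no other gene of the 8 had this order in its single values. The difference between 12W-TTg and 12W-Ctrl was −0.87 ± 0.31 (n = 2 each, 1.82-fold lower, 95% interval −1.60 to −0.13). Its unadjusted p was 0.0270 and limma's adjusted p 0.661, and over the arrays left out the difference ran from −1.17 to −0.56.

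Isg15 is a ubiquitin-like protein that is attached to other proteins during the interferon response. It read 3.19 and 3.26 in 12W-TTg hearts, 3.67 and 3.73 in 12W-Ctrl hearts and 4.81 and 3.27 in 8W-Ctrl hearts. The 12W-TTg replicates were 0.07 apart and the 12W-Ctrl replicates 0.06 apart, but the 8W-Ctrl pair was 1.54 apart. Its difference from 12W-Ctrl was −0.48 ± 0.46, with an SE that pools all 3 groups (n = 2 each). The 12W-TTg values are below the 30th percentile of mean signal over all features (3.65), in the dimmest part of the array. Usp18 takes ISG15 off proteins and also dampens signalling at Ifnar2. Usp18 read 5.27 and 5.08 in 12W-TTg hearts, 5.70 and 5.02 in 12W-Ctrl hearts and 5.83 and 5.25 in 8W-Ctrl hearts. Its groups overlapped in each comparison, its difference from 12W-Ctrl was −0.19 ± 0.32, and without 12W-Ctrl replicate 1 it turned to 0.16.

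Irf7 is the transcription factor that amplifies type I interferon genes. It read 3.83 and 4.11 in 12W-TTg hearts, 4.89 and 4.18 in 12W-Ctrl hearts and 5.14 and 4.18 in 8W-Ctrl hearts. Both 12W-TTg values lay below all 4 control values, but by only 0.07 at the closest pair (4.11 against 4.18). The difference from 12W-Ctrl was −0.57 ± 0.39 (n = 2 each, limma, adjusted p = 0.790). Both 12W-TTg arrays were below all 4 control arrays for 4 of the 8 genes, Ifit2, Rtp4, Isg15 and Irf7, and for 8.16% of all features. For Isg15 the closest pair was nearly tied, at 3.26 against 3.27 in 8W-Ctrl replicate 2, both in the dimmest part of the array.

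**Figure D3:**
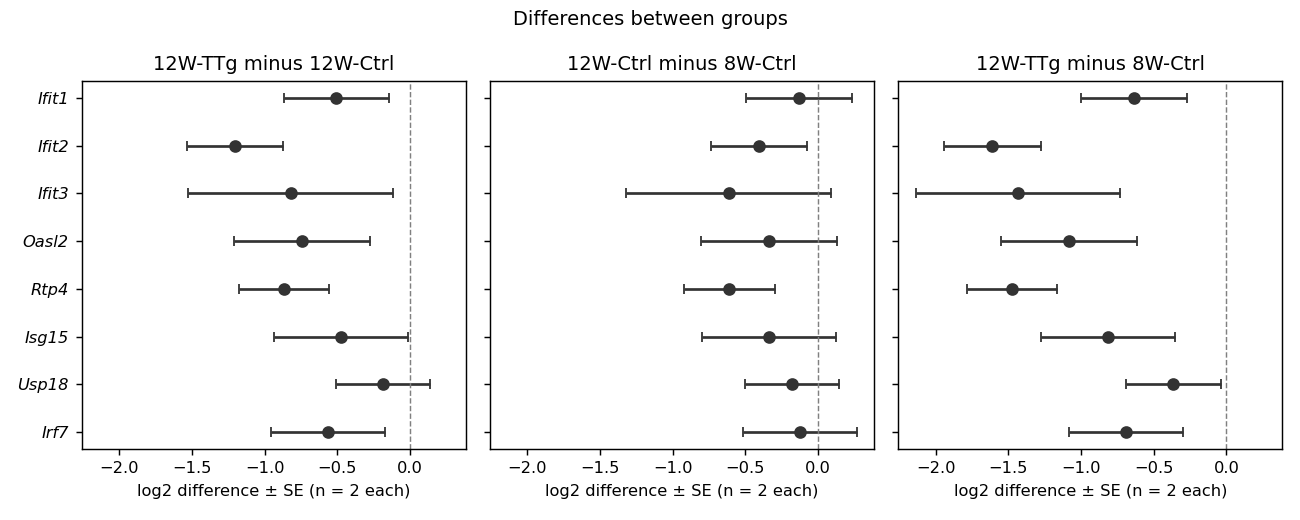
Log2 differences ± SE from the limma fit for the 8 genes in the 3 comparisons, with n = 2 arrays per group and a dashed line at 0. All 24 points lie left of 0, and for each gene the difference of 12W-Ctrl minus 8W-Ctrl is the nearest to it.

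Between 2 and 3 months without the transgene, the 8 genes had lower means in 12W-Ctrl than in 8W-Ctrl hearts, by 0.13 to 0.62, and 48.8% of all features had a lower mean. This rested on single arrays. The median difference was −0.34 against 0.01 over all features, but 0.23 without 8W-Ctrl replicate 1 and 0.04 without 12W-Ctrl replicate 2, with 3 and 4 of the 8 genes still lower. Without 12W-Ctrl replicate 1 it was −0.65 and without 8W-Ctrl replicate 2 it was −0.64. The groups overlapped for 7 of the 8 genes. Rtp4 alone was lower without overlap (−0.61 ± 0.31, n = 2 each, limma, adjusted p = 0.678), and 17.4% of all features were. None of the 8 genes had an unadjusted p under 0.05, against 4.09% of features in the lower direction and 8% in either, and 1.41% of features were lower by that p together with a 2-fold difference. None passed limma's adjusted test, which 1 of 22206 features did (0.0045%).

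Set against the earlier controls, 12W-TTg hearts had lower means of the 8 genes by 0.37 to 1.61, with a median of −0.95 against 0.02 over all features, of which 47.3% had a lower mean. This comparison shares its arrays with both others and differs in genotype and in time. The values of 6 genes lay below those of 8W-Ctrl without overlap, against 18.9% of features, the exceptions being Ifit1 and Usp18. Ifit2 differed by −1.61 ± 0.33 and Rtp4 by −1.48 ± 0.31 (n = 2 each, 3.05-fold and 2.78-fold lower, unadjusted p = 0.00174 and 0.00203, limma, adjusted p = 0.340 for both). They were the 2 of 8 genes with an unadjusted p under 0.05, against 5.41% of features in the lower direction. Both also met a 2-fold difference, and 2.54% of features were lower by both criteria. In limma's adjusted test 0 of 22206 features passed, and 2156 (9.71%) had an unadjusted p under 0.05. Ifit3 differed by −1.44 ± 0.70 and Oasl2 by −1.09 ± 0.47. The median was −0.31 without 8W-Ctrl replicate 1 and −1.50 without 8W-Ctrl replicate 2, and all 8 genes kept a lower mean without either. The group means of all 8 genes stood in the order 12W-TTg, 12W-Ctrl, 8W-Ctrl from lowest to highest, as did 16.6% of features, although the step between the control groups changed sign for 5 of the 8 without 8W-Ctrl replicate 1.

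**Figure D4:**
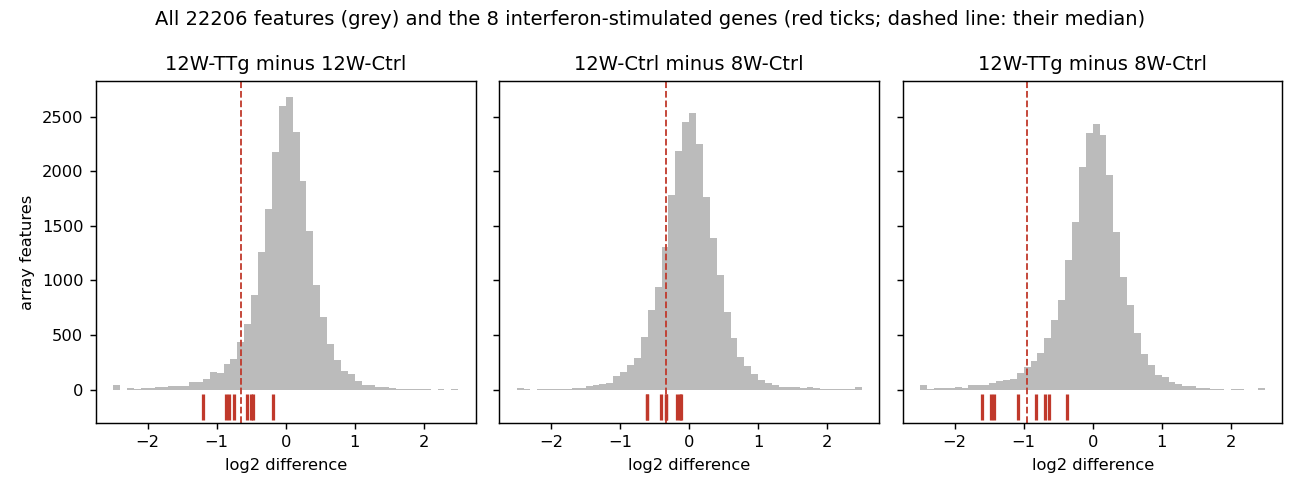
Log2 differences of all 22206 array features (grey bars, counts on the vertical axis) and of the 8 interferon-stimulated genes (red ticks, with a dashed line at their median) in the 3 comparisons. The end bars also hold features beyond 2.5 in either direction. The medians of the 8 genes are −0.66, −0.34 and −0.95, and those of all features are 0.01, 0.01 and 0.02.

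Other genes of the interferon system were read from lists written from general knowledge, but with earlier results of these data known. Of 48 measured further genes induced by type I interferon, 39 had a lower mean in 12W-TTg than in 12W-Ctrl hearts (median −0.45). The values of 25 lay below without overlap, against 19.3% of all features. At an unadjusted p under 0.05, 10 were lower, against 4.11% of features, and 1 was higher, and none passed limma's adjusted test (smallest adjusted p = 0.655). Without 12W-Ctrl replicate 1, 31 were lower, with a median of −0.26, and without 12W-Ctrl replicate 2, 43 were lower, with a median of −0.70. Ifitm3, a membrane protein that blocks virus entry, had the largest difference, at 13.24 and 12.97 in 12W-TTg against 15.36 and 14 in 12W-Ctrl hearts (−1.58 ± 0.58, n = 2 each). Samd9l differed by −1.23 ± 0.39, Ifi27l2a by −1.17 ± 0.75, Slfn8 by −1.10 ± 0.38, the DNA-binding protein gene Ifi204 by −1.06 ± 0.38 and Znfx1 by −0.96 ± 0.25. Another 9 of the 48 had a higher mean, among them Ifit1bl2 (0.73 ± 0.29), Oas2 (0.31 ± 0.30) and Mx1 (0.08 ± 0.41). Between 12W-Ctrl and 8W-Ctrl 24 of the 48 were lower and 24 higher, with a median of 0.02. The even split rested on single arrays. It became 30 lower (median −0.25) without 12W-Ctrl replicate 1 and 13 lower (0.21) without 12W-Ctrl replicate 2. Leaving out 8W-Ctrl replicate 1 gave 12 lower (0.23), and leaving out 8W-Ctrl replicate 2 gave 30 lower (−0.165).

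All 6 measured genes of the ISG15 conjugation pathway, Isg15 and Usp18 among them, had a lower mean in 12W-TTg than in 12W-Ctrl hearts. Herc6, Uba7 and Trim25 were already counted in the list of further genes induced by type I interferon. Ube2l6, the conjugating enzyme, read 6.81 and 5.79 in 12W-TTg hearts, 8.40 and 7.37 in 12W-Ctrl hearts and 8.96 and 8.42 in 8W-Ctrl hearts. Its 12W-TTg values lay below all control values, by −1.59 ± 0.46 against 12W-Ctrl and −2.39 ± 0.46 against 8W-Ctrl (n = 2 each, limma, adjusted p = 0.661 and 0.340). Herc6, the ligase of ISG15 in mice, differed by −0.86 ± 0.34 from 12W-Ctrl, the activating enzyme gene Uba7 by −0.45 ± 0.35 and Trim25 by −0.42 ± 0.28. Without 12W-Ctrl replicate 1, 5 of the 6 genes had a lower mean.

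Of the 11 measured receptor and signal genes 10 had a lower mean in 12W-TTg than in 12W-Ctrl hearts, with a median of −0.30. The median was −0.22 with 10 of 11 lower without 12W-Ctrl replicate 1, and −0.46 with 8 of 11 lower without 12W-TTg replicate 1. Stat2 read 6.94 and 6.57 in 12W-TTg, against 7.71 and 7.41 in 12W-Ctrl and 7.36 and 6.96 in 8W-Ctrl hearts (−0.81 ± 0.27 against 12W-Ctrl, n = 2 each, limma, adjusted p = 0.661). Ifnar1 differed by −0.30 ± 0.26, Ifnar2 by −0.47 ± 0.27 and Irf9 by −0.21 ± 0.36. Of the 19 measured interferon ligand genes, 11 were below the 30th percentile of mean signal. Of the 19 genes, 7 had a lower and 12 a higher mean in 12W-TTg (median 0.17). This rested on single arrays, with a median of 0.03 without 12W-TTg replicate 1 and −0.01 without 12W-TTg replicate 2. Ifnb1 read 3.72 and 3.48 in 12W-TTg, against 3.26 and 3.12 in 12W-Ctrl and 2.96 and 3.50 in 8W-Ctrl hearts.

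Of 16 measured genes induced mainly by interferon gamma, 14 had a lower mean in 12W-TTg than in 12W-Ctrl hearts, with a median of −0.40. Without 12W-Ctrl replicate 1 it was −0.25 with 12 of 16 lower. At an unadjusted p under 0.05, 2 were lower, against 4.11% of all features. These were the GTPase genes Tgtp2 (−1.21 ± 0.37), which has a near-identical copy in Tgtp1, and Gbp4 (−0.69 ± 0.25, n = 2 each, limma, adjusted p = 0.661 for both). Between the control groups the same list held both signs, 7 lower and 9 higher. These counts also rested on single arrays, with 11 lower without 12W-Ctrl replicate 1 and 5 lower without 12W-Ctrl replicate 2. Gbp4 was at 10.48 and 10.22 in 12W-Ctrl and 9.34 and 8.97 in 8W-Ctrl hearts (a difference of 1.2 ± 0.25). The chemokine gene Cxcl9 was at 4.43 and 4.79 in 12W-Ctrl and 6.72 and 5.79 in 8W-Ctrl hearts, a difference of −1.65 ± 0.36 (n = 2 each, limma, adjusted p = 0.406).

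Macrophage markers also had lower means in 12W-TTg hearts. All 13 measured markers of 14 had a lower mean in 12W-TTg than in 12W-Ctrl hearts (median −1.21). At an unadjusted p under 0.05, 5 were lower, against 4.11% of all features, and 1 of the 13, Cx3cr1, was below the 30th percentile of mean signal. Without 12W-Ctrl replicate 1 the median was −0.46 with 11 of 13 lower, and without 12W-Ctrl replicate 2 it was −2.07. Their list mean was 7.84 and 7.44 in 12W-TTg hearts, 9.44 and 8.19 in 12W-Ctrl hearts and 9.33 and 8.48 in 8W-Ctrl hearts. The 5 measured monocyte markers had list means of 4.45 and 4.70 in 12W-TTg, against 5.47 and 5.25 in 12W-Ctrl and 5.89 and 5.09 in 8W-Ctrl hearts, and the values of all 5 lay below those of 12W-Ctrl, against 19.3% of all features. Fibroblast markers had list means of 11.15 and 9.72 in 12W-TTg, against 12.67 and 11.55 in 12W-Ctrl and 12.68 and 10.78 in 8W-Ctrl hearts. All 7 measured fibroblast markers had a lower mean in 12W-TTg than in 12W-Ctrl hearts, with a median of −1.70. It was −0.79 without 12W-TTg replicate 2 and −0.78 without 12W-Ctrl replicate 1. Markers of plasmacytoid dendritic cells, which make interferon, were at 3.45 and 3.28 in 12W-TTg, 3.61 and 3.50 in 12W-Ctrl and 3.30 and 3.28 in 8W-Ctrl hearts, with 3 of 5 below the 30th percentile. The 5 measured class II genes had list means of 7.14 and 7.01 in 12W-TTg, against 9.90 and 7.83 in 12W-Ctrl and 8.91 and 7.20 in 8W-Ctrl hearts. The 12 immediate early genes, which respond to stress and tissue handling, were at 6.81 and 7.21 in 12W-TTg, against 9.11 and 7.81 in 12W-Ctrl and 6.98 and 6.62 in 8W-Ctrl hearts. Without 12W-Ctrl replicate 1 the median of the class II genes was −0.89, against −2.02 with all arrays, and that of the immediate early genes was −0.80, against −0.99. Without 12W-Ctrl replicate 2 they were −3.12 and −1.82. Of the T and NK cell markers 7 of 10 had a lower mean in 12W-TTg than in 12W-Ctrl hearts (median −0.20, 6 dim), with a median of −0.08 without 12W-TTg replicate 1. Of the endothelial markers 4 of 7 had a lower mean (median −0.26), but 2 of 7 without 12W-TTg replicate 2 (median 0.11). The endothelial median was −0.50 without 12W-TTg replicate 1, −0.10 without 12W-Ctrl replicate 1 and −0.45 without 12W-Ctrl replicate 2. Among the 10 cardiomyocyte markers 0 had a lower and 6 a higher mean (median 0.04), with signals close to the top of the scale. Among the 6 measured neutrophil markers 4 were lower and 2 higher (median −0.09, 4 dim), but 0 were lower without 12W-TTg replicate 1. All 5 measured B and plasma cell markers were lower (median −0.34, 3 dim), and 1 passed limma's adjusted test (adjusted p = 0.0278). The part of these genes and cell types in the differences was not tested. In RNA of whole hearts, fewer cells of a type and less RNA per cell cannot be told apart.

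**Figure D5:**
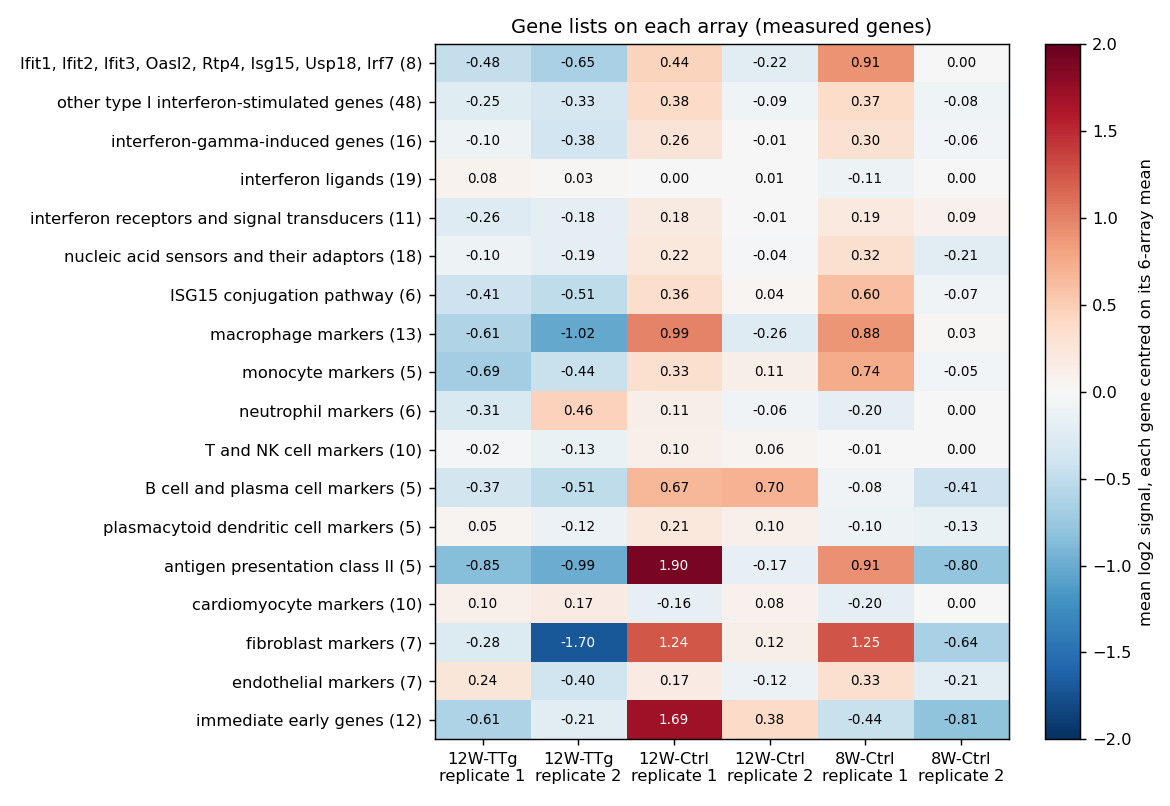
Mean log2 signal of each gene list on each array after centring every gene on its own mean over the 6 arrays. Rows are lists with the number of measured genes, columns are arrays, red is above and blue below the gene's mean. The 8 interferon-stimulated genes in the top row are at −0.48 and −0.65 in 12W-TTg, 0.44 and −0.22 in 12W-Ctrl and 0.91 and 0.00 in 8W-Ctrl hearts.

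Other genes lay as near to the mean of the 8 genes over the arrays as these 8 did themselves. After centring each gene on its own mean, the root mean square difference from this mean over the 6 arrays was smallest for Itm2c (0.0556), Parp9 (0.0613), Serpinb6a (0.0657), Ndufa4l2 (0.0819), Rab8a (0.0908), F13a1 (0.0975), H2bc3 (0.109) and Rpl36a (0.109). Of these, Parp9 stood in the list of interferon-induced genes and F13a1 encodes a coagulation factor subunit found in macrophages. The 8 genes themselves lay between 0.189 (Irf7) and 0.439 (Ifit3) from their mean. Of 13842 other features, each with 1 symbol and outside the dimmest 30% of the array, 79 were as near as Irf7 and 2147 as near as Ifit3. A gene flat over the 6 arrays would lie 0.534 from this mean. Features only as near as Ifit3 therefore need not share the pattern.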

How the data were processed

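Each of 6 mouse hearts gave 100 ng of RNA for a Clariom S array, and only RNA of integrity above 7.0 was used, per the labels' protocols. The authors deposited log2 signals for 22206 features. Per the submitters' processing notes, the software was Transcriptome Analysis Console 4.0. Background correction, summary and normalization are not given in the sources used here. Features took their gene symbols from the platform annotation (19572 had 1 symbol), the highest mean standing for a repeated symbol, and Rigi was read from the feature of its older name, Ddx58.

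A limma 3.58.1 model (R 4.3.3) on all features and all 6 arrays had a coefficient for each group, with Benjamini-Hochberg adjustment over all features, two-sided, and a threshold of 0.05. The p-values set each difference against the spread between replicate arrays, of which there were 2 per group. That spread was pooled over the 3 groups and moved toward a prior drawn from all features. The script was tested on simulated data for 12W-TTg against 12W-Ctrl. A simulated log2 difference of 1 was found in 3 of 500 cases (0.6%). A difference of 2 was found in 48.4%, one of 4 in 90.2% and one of 8 in 99.4%. A gene that did not pass the adjusted test may therefore still differ by 2-fold. Genes were named by a rule: all 8 measured genes, the largest differences in each interferon list, genes of a stated role and the 8 nearest patterns. Outside this rule, Ifit1bl1, Ifit1bl2, Oas2 and Mx1 were named after their values had been seen. The genes and lists were chosen with earlier results of these data known. Alternatives were other variance priors, normalizations, filters and feature choices, the compared groups alone, a replicate block and leaving out each array.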

Additional observations from a re-analysis of the deposited data

How the results depend on the processing

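No measured gene of the 8 passed the adjusted test in any comparison under any of the 15 alternatives fitted, with smallest adjusted p values of 0.229 for 12W-TTg against 12W-Ctrl, 0.330 for 12W-Ctrl against 8W-Ctrl and 0.110 for 12W-TTg against 8W-Ctrl. With an unadjusted p under 0.05 and a 2-fold difference in place of the adjusted p, 1, 0 and 2 of the 8 genes passed. Over the arrays left out, the median difference ran from −1.05 to −0.36, from −0.65 to 0.23 (0.04 without 12W-Ctrl replicate 2) and from −1.50 to −0.31. Single genes that turned were Usp18 in 12W-TTg against 12W-Ctrl, at 0.16 without 12W-Ctrl replicate 1, and 6 genes in 12W-Ctrl against 8W-Ctrl. Without 12W-Ctrl replicate 2 these were Ifit3 at 0.12, Irf7 at 0.23, Oasl2 at 0.28 and Usp18 at 0.16. Without 8W-Ctrl replicate 1 they were Ifit1 at 0.35, Ifit3 at 0.41, Isg15 at 0.43, Irf7 at 0.36 and Usp18 at 0.11. The lowest values over the arrays left out were −0.53 for Usp18 in 12W-TTg against 12W-Ctrl, and in 12W-Ctrl against 8W-Ctrl −0.61 for Ifit1, −1.64 for Ifit3, −1.11 for Isg15, −0.61 for Irf7, −0.96 for Oasl2 and −0.52 for Usp18. Leaving out an array leaves its group with 1 array, assumed to vary like the others. In the 12W-TTg against 8W-Ctrl comparison all 8 genes kept their direction, some only narrowly. Without 8W-Ctrl replicate 1 Isg15 was at −0.045, Usp18 at −0.075, Ifit1 at −0.155 and Irf7 at −0.21. Without 8W-Ctrl replicate 2 these genes were at −1.585, −0.655, −1.115 and −1.17. The lists of other genes were also refitted without each array, an alternative added after seeing the data. The replicate numbers are not known to pair the hearts. Differences between replicates 1 and 2 correlated across features at 0.120 to 0.136 between groups. A replicate block cannot change the differences, because every group holds both replicate numbers, and only the p-values could move. With it 0 of 8 genes passed limma's adjusted test (smallest adjusted p 0.308, 0.521 and 0.110).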

Other observations

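Sensors of foreign and released nucleic acids and their adaptors lie upstream of interferon, and 18 of 19 listed genes were measured. Rigi, Ifih1 and Dhx58 among them were also counted in the list of further genes induced by type I interferon. In 12W-TTg against 12W-Ctrl hearts 11 had a lower and 7 a higher mean, with a median of −0.24. The median was −0.14 without 12W-Ctrl replicate 1 and −0.13 without 12W-TTg replicate 2. Tlr7, the endosomal receptor for single-stranded RNA, read 7.80 and 7.35 in 12W-TTg hearts, 9.21 and 8.55 in 12W-Ctrl hearts and 8.85 and 8.79 in 8W-Ctrl hearts. Its 12W-TTg values lay below all 4 control values, with a difference of −1.31 ± 0.30 from 12W-Ctrl (n = 2 each, limma, adjusted p = 0.646). Mavs, the mitochondrial adaptor of the cytoplasmic RNA sensors, had the opposite sign, at 13.87 and 13.98 in 12W-TTg hearts, 12.98 and 13.69 in 12W-Ctrl hearts and 12.69 and 12.74 in 8W-Ctrl hearts. Its difference was 0.59 ± 0.29 from 12W-Ctrl and 1.21 ± 0.29 from 8W-Ctrl (n = 2 each, limma, adjusted p = 0.700 and 0.340). The cytoplasmic DNA sensor gene Cgas was dim, at 3.24 to 3.97 on all 6 arrays. Sting1, its adaptor, differed by −0.86 ± 0.58 from 12W-Ctrl, with 7.37 and 5.52 in the 8W-Ctrl pair.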
